A study of Mus musculus with 23 samples.

Results

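A set of 10 acute phase and interleukin (IL)-1 responsive genes was followed across the tumors of PyMT mice in which IL-38 was neutralized or deleted, or in which the γδ T-cell receptor (TCR) was blocked. The 10 genes were chosen because they are known to respond to IL-1 family and IL-6 signals, and all 10 were found among the 47643 gene identifiers of the files. They code for secreted defense and transport proteins (Lcn2, Saa1, Saa2, Saa3, Hp, C3, Orm1 and Lrg1), a membrane metalloreductase (Steap4) and a nuclear regulator of NF-κB target genes (Nfkbiz). No measured value entered the choice of the genes, but results of these data were known when it was made.

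The acute phase response is the change in secreted proteins that follows infection, injury or inflammation. The liver is its classical site, where IL-6 acts through STAT3 and IL-1 through NF-κB and C/EBP factors, but epithelia make several of the same proteins locally. In barrier epithelia, IL-1 family cytokines and IL-17 induce Nfkbiz, whose product IκBζ in turn supports transcription of genes such as Lcn2. IL-38, encoded by Il1f10, is an IL-1 family member that dampens inflammation, and IL-17 made by γδ T cells is among the outputs it restrains.

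All mice were females that carried the polyoma virus middle T oncoprotein transgene, which gives mammary carcinomas, on a C57BL/6 background. PyMT WT mice received 100 µg of an IgG1 isotype control (5 libraries) or of anti-IL-38 antibody (6 libraries) in 5 weekly injections that began when the first tumor measured 0.6 cm. In a second experiment, PyMT WT mice received control IgG (4 libraries), and PyMT IL-38 KO mice received control IgG (4 libraries) or anti-γδTCR antibody (4 libraries), from 13 weeks of age for 5 weeks, with 500 µg first and 200 µg thereafter. A PyMT WT group with anti-γδTCR is not analysed here. RNA came from whole dissociated tumors, so fewer cells of a type and less RNA per cell cannot be told apart in any result. Nothing in the labels says whether each library is a separate mouse, so p-values measure the spread between these libraries.

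The 23 libraries held 6273049 to 15879164 reads on genes, and 5 of them stood apart from the other 18. These 5 were IL-38 KO + IgG replicate 4 and all 4 libraries of the IL-38 KO + anti-γδTCR group, in which processed pseudogenes took 1.31% to 1.98% of reads against 0.0943% to 0.191% elsewhere. They were also the 5 libraries with the fewest reads, at 6273049 to 8794202 against 10138353 or more in the other 18, and the gene Gm42418 took 11.3% to 20.1% of their reads against 2.62% to 5.70%. Results of the genotype and blockade comparisons are given with and without IL-38 KO + IgG replicate 4. The name of IL-38 KO + anti-γδTCR replicate 3 in the deposited table carries the extra mark rep, and no source used here says whether that library was a repeat. The effect of γδTCR blockade and the high share of processed pseudogene reads cannot be told apart, because no library of the blockade group is without it. Leaving out IL-38 KO + IgG replicate 4 removes the only control library that has it, so that fit cannot separate them either. Il1f10 had 0 reads in all 23 libraries, where 3 reads would be 0.189 to 0.478 CPM (reads scaled to the total of their library), so it cannot check the genotype labels.

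The sequences upstream of the genes were searched for the motifs of the STAT, NF-κB and C/EBP factors named above. Windows from 250 bases before to 50 after the annotated start (RefSeq, GRCm38.p6) were at hand for 7 of the 10 genes, namely Lcn2, Saa1, Saa2, Saa3, C3, Lrg1 and Steap4. Both strands were searched for the C/EBP motif TTGCNNAA, the STAT motif TTCNNNGAA and the κB motif, none of which overlapped another in these windows. The C/EBP motif was found in 6 of the 7 windows, against 10.8% of all 32841 windows of the same length. The STAT motif (8.30% of all windows) and the κB motif (4.51%) were found only in the Steap4 window, and the Lrg1 window held none of the 3. The windows of 4 genes are shown 5′ to 3′ in the direction of transcription, with motif letters in capitals. Those of Saa1 and Saa2 are shown because the pair moved together over the libraries, that of Saa3 as the third member of the cluster, and that of Steap4 because it held all 3 motifs.
Saa1: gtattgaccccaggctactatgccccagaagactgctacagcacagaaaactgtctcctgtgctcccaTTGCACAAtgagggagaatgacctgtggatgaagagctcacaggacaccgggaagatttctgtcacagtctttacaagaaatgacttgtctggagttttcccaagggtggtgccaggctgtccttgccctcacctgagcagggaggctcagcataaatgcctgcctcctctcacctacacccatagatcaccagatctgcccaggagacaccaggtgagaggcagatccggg
Saa2: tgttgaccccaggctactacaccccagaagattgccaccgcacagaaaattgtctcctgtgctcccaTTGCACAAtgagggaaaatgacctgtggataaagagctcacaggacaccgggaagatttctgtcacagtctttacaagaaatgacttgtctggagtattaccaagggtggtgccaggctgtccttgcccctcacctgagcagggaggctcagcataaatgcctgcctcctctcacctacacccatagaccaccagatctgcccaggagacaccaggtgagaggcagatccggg
Saa3: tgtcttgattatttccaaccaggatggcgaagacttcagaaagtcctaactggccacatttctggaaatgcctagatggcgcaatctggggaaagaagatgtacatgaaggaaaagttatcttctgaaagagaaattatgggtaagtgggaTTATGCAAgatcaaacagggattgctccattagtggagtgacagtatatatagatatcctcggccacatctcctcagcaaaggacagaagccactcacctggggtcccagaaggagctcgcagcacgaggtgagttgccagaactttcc
Steap4: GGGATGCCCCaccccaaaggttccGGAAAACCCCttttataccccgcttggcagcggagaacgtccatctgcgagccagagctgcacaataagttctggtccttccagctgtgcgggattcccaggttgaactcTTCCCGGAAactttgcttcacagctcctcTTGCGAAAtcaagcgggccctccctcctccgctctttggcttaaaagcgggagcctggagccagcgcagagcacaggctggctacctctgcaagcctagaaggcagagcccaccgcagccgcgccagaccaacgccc
The windows lie at chr7:46742931-46743230 on the minus strand (Saa1), chr7:46751583-46751882 on the plus strand (Saa2), chr7:46715627-46715926 on the minus strand (Saa3) and chr5:7960222-7960521 on the plus strand (Steap4). The Saa1 and Saa2 windows had the same base at 287 of 301 aligned positions (95.3%), and the capitals TTGCACAA stand 182 and 183 bases before the start. Saa1 and Saa3 matched at 165 of 324 aligned positions (50.9%), and the C/EBP letters of Saa3 lie on the other strand 99 bases before its start. In Steap4 the capitals mark the κB motif at 250 and at 226 bases before the start, the STAT motif TTCCCGGAA at 116 and the C/EBP motif TTGCGAAA at 87. A match of letters describes the window and is not a measured binding site.

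The level of each gene in the 5 groups was first set side by side in CPM, a scale that does not depend on which deposited table a library came from. Lcn2, the iron-siderophore binding protein lipocalin-2, had group means of 2347 ± 735 CPM (SD, n = 5) in the isotype control, 3520 ± 1206 (n = 6) with anti-IL-38, 2362 ± 324 (n = 4) in WT + IgG, 2946 ± 783 (n = 4) in IL-38 KO + IgG and 3209 ± 1179 (n = 4) in IL-38 KO + anti-γδTCR. Its 5 groups overlapped throughout. Saa1, a serum amyloid A carried on lipoproteins, had means of 267 ± 165 CPM (SD, n = 5) in the isotype control and 351 ± 177 (n = 6) with anti-IL-38. Its means were 598 ± 60.5 (n = 4) in WT + IgG, 649 ± 354 (n = 4) in IL-38 KO + IgG and 873 ± 512 (n = 4) with anti-γδTCR. All 3 groups of the genotype experiment thus had higher Saa1 means than both groups of the neutralization experiment, and of the neighbours in this order only WT + IgG and anti-IL-38 differed by more than the larger SD, with ranges that still overlapped. Saa2 had the same order of groups.

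**Figure D1:**
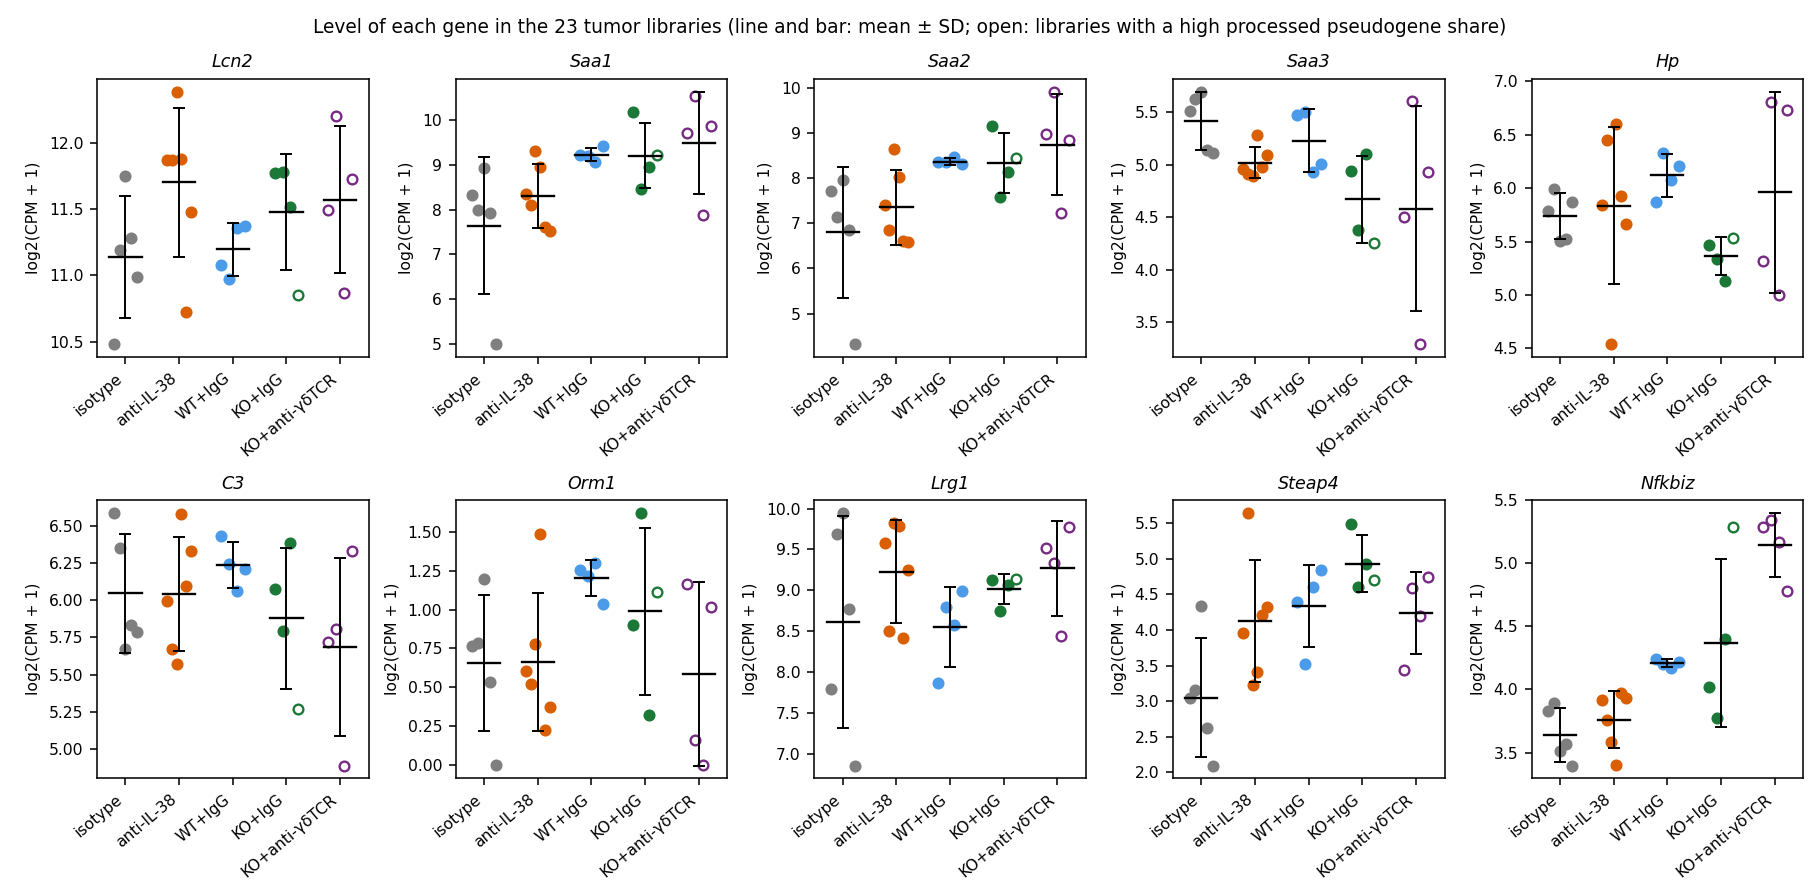
Level of each of the 10 genes as log2(CPM + 1) in every library of the 5 groups, with the mean and SD as line and bar; open points are the 5 libraries with a high share of processed pseudogene reads. Nfkbiz is the gene in which the groups stand farthest apart, from 9.53 CPM in the lowest isotype control to 39.7 CPM in the highest anti-γδTCR library, while the points of most other genes overlap across the groups.

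Nfkbiz had the largest share of its variance between groups of the 10 genes, at 76.5% on the log2(CPM + 1) scale. Its means were 11.6 ± 1.87 CPM (SD, n = 5) in the isotype control, 12.7 ± 2.05 (n = 6) with anti-IL-38, 17.5 ± 0.372 (n = 4) in WT + IgG, 21.5 ± 11.5 (n = 4) in IL-38 KO + IgG and 34.8 ± 5.88 (n = 4) with anti-γδTCR. WT + IgG and anti-IL-38 were neighbours in this order and did not overlap, at 17.05 to 17.9 against 9.57 to 14.7 CPM. The share of all genes that separate these groups of different experiments was not counted, so this is not read as particular to Nfkbiz. Steap4 followed with 49.1% of its variance between groups, from 8.56 ± 6.22 CPM (SD, n = 5) in the isotype control to 30.5 ± 9.39 (n = 4) in IL-38 KO + IgG. The share was 41.7% for Saa2, 39.1% for Saa1, 35.4% for Saa3, 24.2% for Orm1, 22.5% for Lcn2, 18.4% for Hp, 17.8% for C3 and 16.5% for Lrg1. These shares include the 5 libraries that stood apart, among them the whole anti-γδTCR group. They were not computed without those libraries, nor over all genes. Groups of different experiments differ in dose, start of treatment and control antibody, so levels were not tested between experiments.

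The spread within groups differed widely between genes. Saa1 and Saa2 had the largest pooled SD within groups, at 0.98 and 0.97 on the log2(CPM + 1) scale, followed by Lrg1 at 0.76 and Steap4 at 0.70, while Nfkbiz had the smallest at 0.33. In the isotype control group, Saa1 ranged 15.8-fold from 30.9 to 489 CPM and Saa2 13.03-fold from 18.98 to 247 CPM. Replicate 5 was the lowest library of that group for both genes. In WT + IgG the same genes varied 1.27-fold and 1.12-fold.

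Neutralization of IL-38 left all 10 genes below the threshold, and Steap4 and Saa3 had the smallest p-values. Values in this and the genotype comparison are normalized counts, that is reads divided by 1 size factor per library, and differences are on the log2(normalized count + 1) scale. By limma 0 of 10 genes had an adjusted p under 0.05, as did 0% of the 16002 genes tested. An unadjusted p under 0.05 was reached by 2 of 10, against 10.5% of all genes. DESeq2 on the recovered reads called 0 of 10 (0.469% of all genes), and edgeR called 0 of 10 (0% of all genes). The median difference of the 10 genes was 0.43, with 9 of 10 higher on average with anti-IL-38, beside a median of 0.0019 and 50.2% of all genes higher.

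Steap4, which reduces iron and copper at membranes and is induced by inflammatory cytokines, had 87.8, 101, 250.3, 63.6 and 41.9 normalized counts in isotype control replicates 1 to 5. With anti-IL-38 it had a lowest value of 122, a median of 200.1 and a highest value of 640.8. All 6 anti-IL-38 libraries lay above the control median, but control replicate 3 lay above 5 of them, so the groups overlapped. The difference was 1.24 (95% confidence interval 0.24 to 2.23, limma p = 0.0185, adjusted p = 0.425; two-sided exact permutation test, p = 0.0498). Replicate 2 held the highest value, and without it the difference was 0.92.

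Saa3, the serum amyloid A made mainly outside the liver, had the opposite sign. Its values were 541, 616, 663.7, 422 and 430.8 normalized counts in the isotype control and ran from 376.5 through a median of 398.7 to 494.8 with anti-IL-38. All 6 anti-IL-38 libraries lay below the control median, and 4 of them below every control. The difference was −0.36 (95% confidence interval −0.67 to −0.046, limma p = 0.0276, adjusted p = 0.434; two-sided exact permutation test, p = 0.0325).

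Lcn2 had 17375, 29846, 44859, 30757 and 25978 normalized counts in the isotype control and a lowest value of 21002, a median of 47855 and a highest value of 77966 with anti-IL-38. Of the 6 anti-IL-38 libraries, 4 lay above every control, and replicate 5 lay below the control median. The difference was 0.61 (95% confidence interval −0.037 to 1.26, adjusted p = 0.486). Saa1 had 3897, 3245, 6374, 2989 and 395.5 normalized counts in the controls and a lowest value of 2362, a median of 3833 and a highest value of 9213 with anti-IL-38. Its difference of 0.73 rested on control replicate 5, without which it was 0.068. The same library moved Saa2 from 0.62 to −0.0088, Lrg1 from 0.67 to 0.23 and the median of the 10 genes from 0.43 to 0.096. Lrg1, a secreted leucine-rich glycoprotein of the acute phase, spanned 1473 to 12859 normalized counts in the controls and 4218 to 13186 with the antibody. Luminal epithelium markers moved with these genes, as all 9 were higher on average with anti-IL-38 (median difference 0.64), with summed levels of 3060 to 21076 CPM in the controls and 5066 to 18588 CPM with anti-IL-38. All 6 fibroblast markers were also higher on average (median difference 0.55), with sums of 1189.2 to 3981 CPM in the controls and 1447 to 4428 CPM with anti-IL-38, as were 5 of 7 basal epithelium markers (0.56), with sums of 105 to 374 and 81.5 to 1790 CPM. Over all 23 libraries with group means removed, Steap4 and the fibroblast sum had Pearson's r = 0.54 (adjusted permutation p = 0.171) and Spearman's rho = 0.44 (adjusted permutation p = 0.324), and r was 0.43 without the 2 libraries farthest from the median. Of 7 macrophage markers, 5 were lower on average with anti-IL-38 (median difference −0.20). The macrophage sums were 2273 to 3141 CPM in the controls and 1932 to 2681 CPM with anti-IL-38. All 5 neutrophil markers tested were also lower (−0.12), and the sums of that list were 318 to 582 and 243 to 390 CPM. Saa3 and the macrophage sum had r = 0.48 and rho = 0.52 over the 23 libraries (adjusted permutation p = 0.258 and 0.182). The part of these marker levels in the results was not tested.

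The other 4 genes differed little between the groups of this experiment. Hp, the hemoglobin scavenger haptoglobin, differed by 0.15 (95% confidence interval −0.45 to 0.75), and C3, the central component of complement, by 0.046 (−0.38 to 0.47). Nfkbiz differed by 0.18 (−0.16 to 0.53). Orm1, an orosomucoid that binds lipids and drugs in plasma, had only 0 to 23.6 normalized counts in this experiment, and its difference of 0.25 had an interval of −1.36 to 1.86. Differences of the size of the Steap4 value could not be resolved for Orm1 at this depth.

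**Figure D2:**
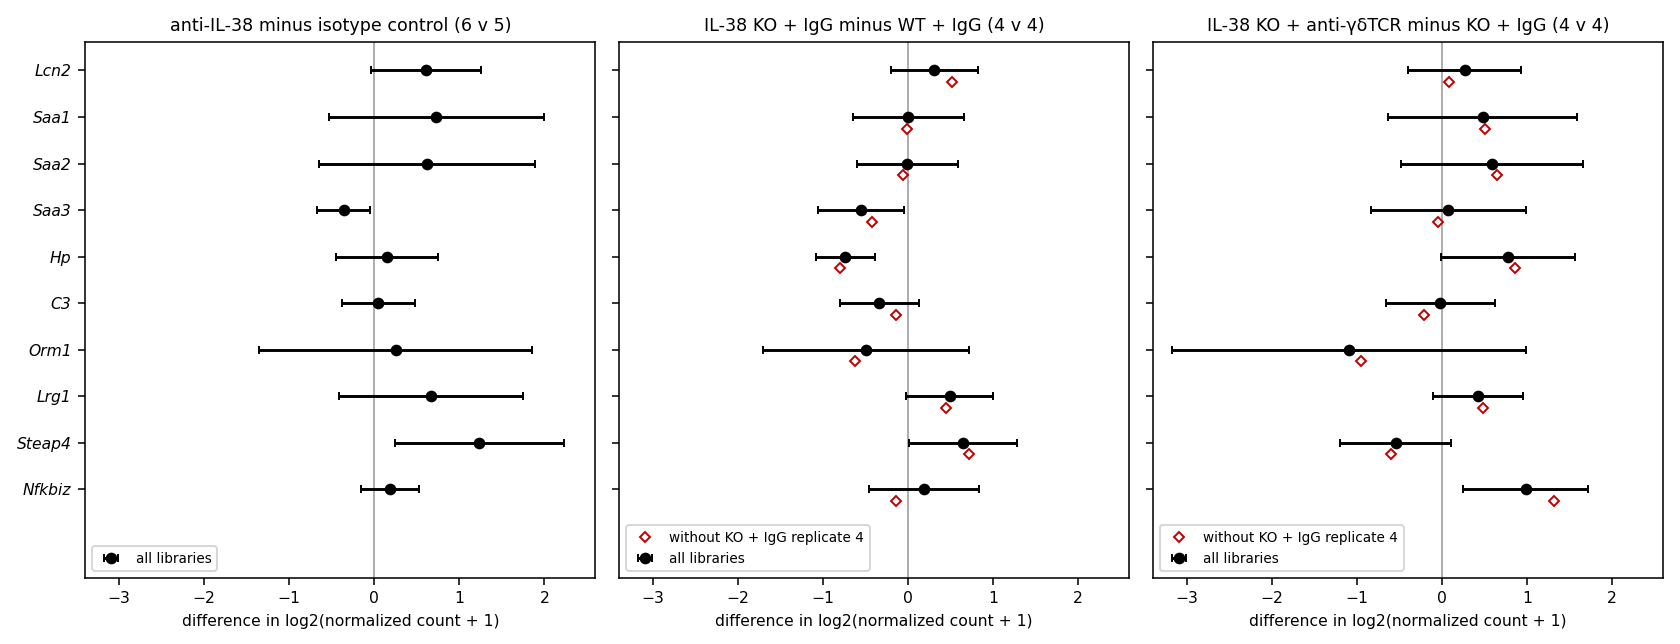
Difference of each gene in log2(normalized count + 1) in the 3 comparisons, with 95% confidence intervals over all libraries as black bars and the value without IL-38 KO + IgG replicate 4 as open red diamonds. Hp in the genotype comparison, at −0.74, and Nfkbiz under γδTCR blockade, at 0.98 with all libraries and 1.32 without that library, lie away from 0.

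Deletion of IL-38 was compared as IL-38 KO + IgG against WT + IgG, and Hp was the gene with the clearest separation. Hp had 656, 959, 774 and 845 normalized counts in the 4 WT libraries and 511, 459, 408 and 551 in the 4 IL-38 KO libraries. Every IL-38 KO library lay below every WT library, a pattern shown by 3.41% of the 16563 genes tested. The difference was −0.74 (95% confidence interval −1.08 to −0.40), or 0.599-fold, with a limma p of 0.000597, which ranked 43 among all genes, and an adjusted p of 0.210. The exact permutation test gave p = 0.0286, the smallest that 4 against 4 libraries allow. DESeq2 called Hp lower (adjusted p = 0.00709), and edgeR did not (adjusted p = 0.249). Without IL-38 KO + IgG replicate 4, the difference was −0.81 and the adjusted limma p was 0.0923.

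Adipocyte markers moved with Hp in this comparison. All 7 were lower on average in IL-38 KO tumors, with a median difference of −1.11, and their summed level was 310 to 435 CPM in WT against 56.1 to 288 CPM in IL-38 KO tumors. None of the 7 was at 0 in either group. Over all 23 libraries with group means removed, Hp and the adipocyte sum had Pearson's r = 0.62 (adjusted permutation p = 0.208) and Spearman's rho = 0.48 (adjusted permutation p = 0.326), and r was 0.40 without the 2 libraries farthest from the median. Within the neutralization experiment r was 0.80 (permutation p = 0.0408), and within the experiment that holds the genotypes it was 0.39 (permutation p = 0.341). Other marker lists moved with the genotype as well. All 7 macrophage markers were lower on average in IL-38 KO tumors (median difference −0.47, sums of 1930 to 2514 CPM in WT and 853 to 2095 CPM in IL-38 KO), as were 6 of 7 basal epithelium markers (−0.35, sums of 351 to 761.7 and 235 to 389 CPM). All 5 skeletal muscle markers were higher on average (2.26), with sums of 2.001 to 66.7 CPM in WT and 10.9 to 379 CPM in IL-38 KO. Without IL-38 KO + IgG replicate 4, the median differences were −1.51 for adipocyte, −0.23 for macrophage, −0.40 for basal epithelium and 3.22 for skeletal muscle markers. The part of these marker levels in the Hp result was not tested.

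By limma 0 of the 10 genes passed the threshold between the genotypes, as did 0.00604% of all genes, and 3 of 10 had an unadjusted p under 0.05, against 12.1%. DESeq2 called 1 of 10 (1.84% of all genes), and edgeR called 0 (0%). The median difference of the 10 was −0.0038, with 5 higher and 5 lower, beside a median of 0.0053 and 50.6% higher over all genes. Saa3 had 496, 537, 345 and 361 normalized counts in WT and 351, 230.5, 399 and 219.99 in IL-38 KO tumors. The groups overlapped, with a difference of −0.55 (95% confidence interval −1.06 to −0.046, adjusted p = 0.376). Steap4 had 229, 127, 271 and 322 normalized counts in WT and 519, 273, 354 and 303 in IL-38 KO tumors, again with overlap, and differed by 0.64 (0.0095 to 1.27, adjusted p = 0.406).

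The remaining genes included one whose reading turned on the library that stood apart. Lcn2 had 24753, 24304, 30548 and 30791 normalized counts in WT and 41261, 41032, 35127 and 22415 in IL-38 KO tumors, a difference of 0.31 (95% confidence interval −0.21 to 0.82). The lowest value was that of replicate 4, without which the groups did not overlap, as for 7.43% of 16225 genes in the direction of higher values, and the difference was 0.51 (0.11 to 0.91, adjusted p = 0.246). In that fit limma called 0 of the 10 genes, against 0.0431% of all genes. Saa1 and Saa2 differed by 0.0029 and −0.011, with wide intervals of −0.65 to 0.66 and −0.61 to 0.58. Lrg1 differed by 0.49, C3 by −0.34, Orm1 by −0.50 and Nfkbiz by 0.19 (−0.14 without replicate 4 of IL-38 KO + IgG), with adjusted p-values between 0.421 and 0.820 in limma. Without that replicate the differences were −0.42 for Saa3, 0.71 for Steap4, 0.44 for Lrg1, −0.14 for C3, −0.63 for Orm1, −0.015 for Saa1 and −0.059 for Saa2, with 0 of them past the adjusted threshold.

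Blockade of the γδTCR in IL-38 KO tumors was compared with IL-38 KO + IgG in a table normalized on its own, and Nfkbiz had the smallest p of the 10 genes. Nfkbiz had 135, 112, 187 and 362 normalized counts in IL-38 KO + IgG replicates 1 to 4 and 399, 389, 396 and 256 with anti-γδTCR. Of the 4 blockade libraries, 3 lay above every control, and IL-38 KO + IgG replicate 4 lay within the range of the blockade group. The difference was 0.98 (95% confidence interval 0.25 to 1.72, limma p = 0.0140, adjusted p = 0.117), and the exact permutation test gave p = 0.0571. Without IL-38 KO + IgG replicate 4, Nfkbiz rose by 1.32 (0.81 to 1.83, limma adjusted p = 0.00231), and the groups did not overlap, as for 14.3% of all genes in this direction. By the adjusted limma p in that fit, 14.3% of all 16480 genes tested were also called, against 0% with all libraries. All blockade libraries and no control of that fit had the high share of processed pseudogene reads. It therefore cannot separate blockade from that property.

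The 5 libraries that stood apart were also the 5 with the highest Nfkbiz levels. They held 26.5 to 39.7 CPM of Nfkbiz, against 9.53 to 20.2 CPM in the other 18. The share of all genes that separate these 5 libraries from the other 18 was not counted. The separation is therefore not read as a trait of Nfkbiz. Neutrophil markers summed to 1.498 to 10.1 CPM in the same 5 libraries, against 202 to 582 CPM elsewhere, and the collagenase gene Mmp8 alone made up 97.5% to 98.8% of the group totals outside the blockade group. Of 7 macrophage markers, 6 were also lower on average under blockade, with sums of 655 to 1064 CPM against 853 to 2095 CPM (median difference −0.96). DESeq2 called 4 of the 7 macrophage markers lower, against 6.27% of all genes. All 7 basal epithelium markers (0.56) and all 5 skeletal muscle markers (1.34) were higher on average. Without IL-38 KO + IgG replicate 4, the median differences were −1.25 for macrophage, 0.50 for basal epithelium and 0.40 for skeletal muscle markers. In that fit limma called 4 of the 7 macrophage markers lower, beside 14.3% of all genes. Without anti-γδTCR replicate 3, the library named with rep, the Nfkbiz difference was 0.93. The part of these properties in the Nfkbiz result was not tested.

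**Figure D3:**
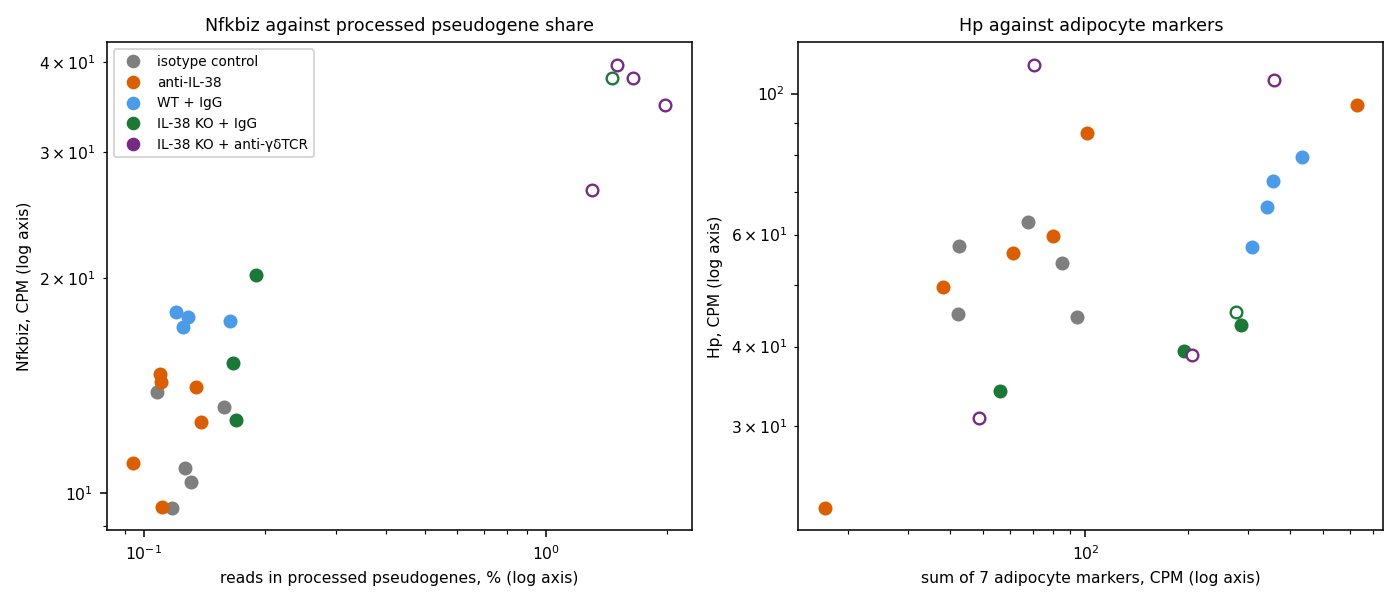
Left, Nfkbiz in CPM against the percent of reads in processed pseudogenes, and right, Hp in CPM against the summed level of 7 adipocyte markers in CPM, for the 23 libraries on log axes, with open points for the 5 libraries that stood apart. The open points of the left panel lie together at 1.31% to 1.98% and 26.5 to 39.7 CPM, and the 4 WT + IgG points of the right panel lie above all 4 IL-38 KO + IgG points.

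Hp varied more between the blockade libraries than between their controls. It had 383.5, 348, 315 and 432 normalized counts in IL-38 KO + IgG and 407, 1088, 351 and 1018 with anti-γδTCR, so that replicates 2 and 4 lay above every control and replicates 1 and 3 within the control range. The difference was 0.78 (95% confidence interval −0.0078 to 1.57, adjusted p = 0.236). Lcn2 differed by 0.27 (−0.40 to 0.93), Lrg1 by 0.43 (−0.10 to 0.96), C3 by −0.022 (−0.66 to 0.62) and Saa3 by 0.075 (−0.84 to 0.99). Saa1 and Saa2 differed by 0.48 and 0.59, and their blockade libraries ran from 2656 to 14536 and from 1693 to 9452 normalized counts. Steap4 had 389.8, 207, 274 and 237 normalized counts in the controls and 103, 225.5, 197 and 249 with anti-γδTCR, a difference of −0.55 (−1.20 to 0.11, adjusted p = 0.318). Orm1 had 0 to 13.1 normalized counts with anti-γδTCR, and its difference of −1.09 had an interval of −3.17 to 0.99.

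These values depended on single libraries to different degrees. Without IL-38 KO + IgG replicate 4, Hp differed by 0.86 (95% confidence interval 0.028 to 1.69, limma adjusted p = 0.175), Lcn2 by 0.079, Saa1 by 0.50, Saa2 by 0.64, Saa3 by −0.048, C3 by −0.21, Orm1 by −0.96, Lrg1 by 0.49 and Steap4 by −0.61. With each library left out in turn, Hp ran from 0.52 without anti-γδTCR replicate 2 to 1.06 without replicate 3, and Saa1 from 0.15 to 0.97 without the same 2 libraries. Steap4 ran from −0.69 without anti-γδTCR replicate 4 to −0.27 without replicate 1.

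By limma 0 of the 10 genes passed the threshold under blockade (0% of 16481 genes), 1 of 10 had an unadjusted p under 0.05 (21.7% of all genes), and DESeq2 and edgeR called 0 of 10 (6.27% and 0%). The median difference of the 10 was 0.35, with 7 of 10 higher, beside a median of 0.022 and 51.9% higher over all genes. Without IL-38 KO + IgG replicate 4, limma called 1 of 10, against 14.3% of 16480 genes, and the median of the 10 was 0.28.

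Antibody and knockout were also pooled, as 10 libraries with IL-38 inhibited against 9 controls, a comparison that shares all of its libraries with the neutralization and genotype comparisons. Lcn2 differed by 0.49 (95% confidence interval 0.049 to 0.94, adjusted p = 0.430), Saa3 by −0.42 (−0.75 to −0.099, adjusted p = 0.373) and Steap4 by 0.94 (0.17 to 1.72, adjusted p = 0.393). These 3 of 10 genes had an unadjusted limma p under 0.05, against 10.5% of 16352 genes, and 0 of 10 passed the adjusted threshold by limma (0%), DESeq2 (0.428%) or edgeR (0.00612%). Hp was the gene whose antibody and knockout differences were farthest from each other relative to their error, at 0.15 and −0.74. The interaction term for Hp was 0.89 (95% confidence interval 0.12 to 1.66) and did not pass the threshold in limma over the 19 libraries (adjusted p = 0.595). For 0 of the 10 genes, and for 1 of 16352, did the interaction pass the threshold in limma, and at an unadjusted p under 0.05 the numbers were 1 of 10 and 1255 of all genes.

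The genes of the set were then related to each other over the 23 libraries, with the mean of each group removed, on the log2(CPM + 1) scale. Saa1 and Saa2 were the closest pair, with Pearson's r = 0.98 and Spearman's rho = 0.94 (permutation p = 1e-05 for both, the smallest the permutations can give; adjusted p = 0.00045 over 45 pairs). Within the neutralization experiment r was 0.99 (permutation p = 3e-05), within the genotype and blockade experiment it was 0.98 (permutation p = 0.00344), and without the 2 libraries farthest from the median it was 0.96. The ratio of Saa1 to Saa2 reads ran from 1.52 to 2.41 over the 23 libraries, with a median of 1.83. None of the 326 stretches of 75 bases in the last 400 bases of the Saa1 transcript occurred in that of Saa2, so the reads of the 2 genes can be separated there. For Orm1, 97 of 326 such stretches were shared with its neighbour Orm2, and its counts are uncertain to that extent.

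**Figure D4:**
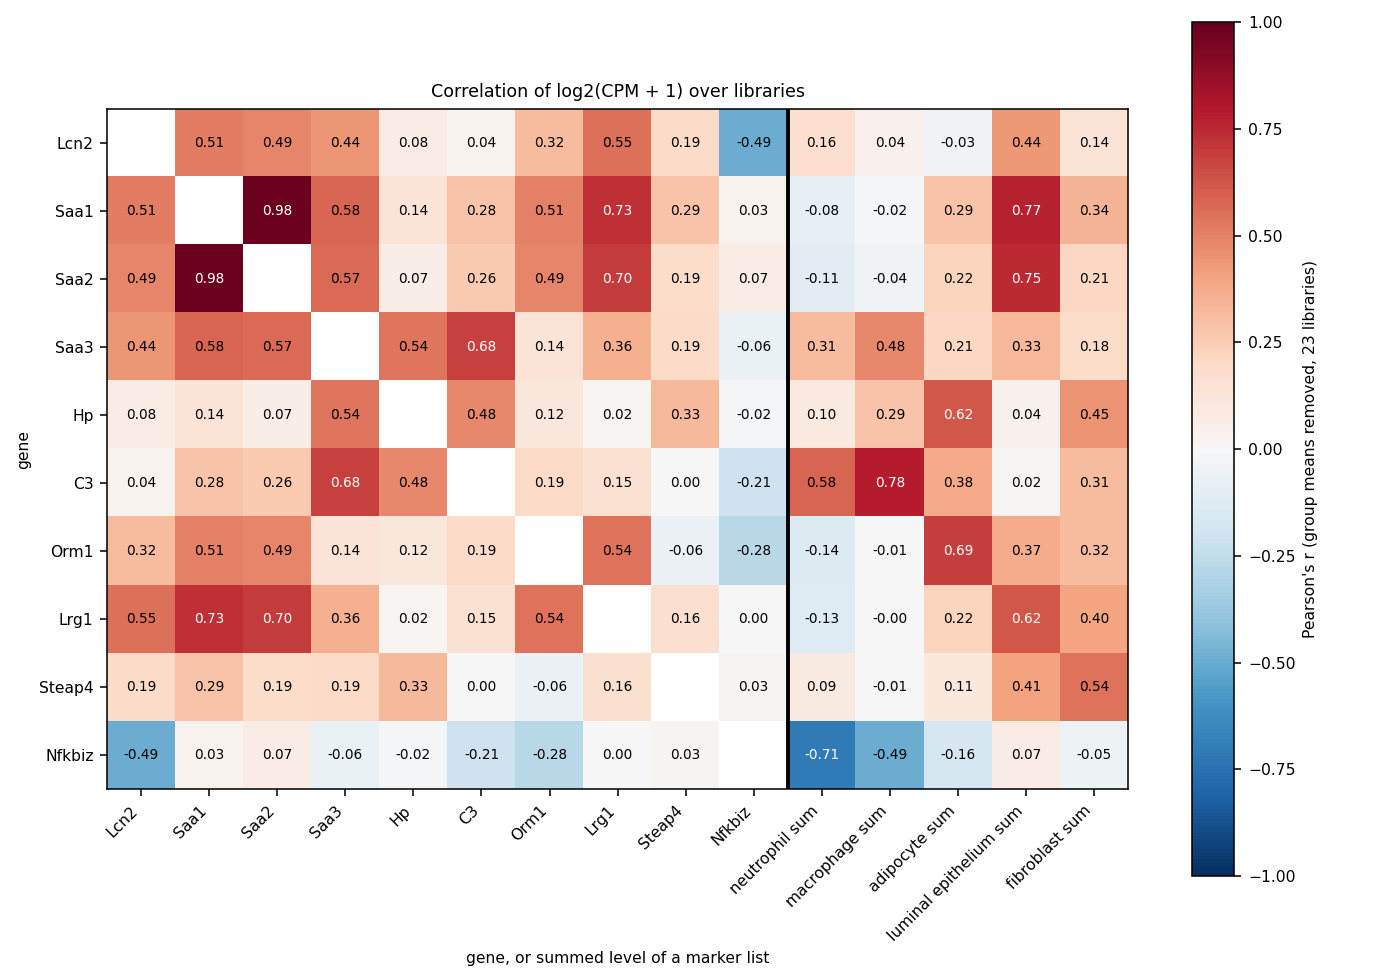
Pearson's r between the 10 genes (left of the line) and with the summed level of 5 marker lists (right of the line), over 23 libraries on log2(CPM + 1) with group means removed. The Saa1 and Saa2 pair reaches 0.98, C3 with the macrophage sum 0.78 and Saa1 with the luminal epithelium sum 0.77, while most cells of the Nfkbiz row lie near or below 0.

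Saa1 and Lrg1 were the other pair past the adjusted threshold, with r = 0.73 (adjusted permutation p = 0.0342) and rho = 0.67 (adjusted permutation p = 0.0234). It was 0.78 within the neutralization experiment (permutation p = 0.01) and 0.64 within the other (permutation p = 0.0622). Without isotype control replicate 5 and IL-38 KO + anti-γδTCR replicate 3, which were farthest from the median, r fell to 0.43, so the size of this relation rests on those 2 libraries. In all, 2 of 45 pairs passed, and 39 of 45 had a positive r. A positive r was common over all genes for some members. By r with C3, Steap4 ranked 7426 of 11322 genes at 0.0038, while by r with Lcn2, C3 ranked 4958 at 0.038. The count of positive pairs is therefore not read as a trait of the set.

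Among 50 relations of the genes with summed marker levels, 3 passed the adjusted threshold. C3 went with the macrophage sum (r = 0.78, adjusted permutation p = 0.005; rho = 0.76, adjusted permutation p = 0.021), at 0.79 and 0.81 within the experiments (permutation p = 0.0135 and 0.00755) and 0.76 without the 2 farthest libraries. Saa1 and Saa2 went with the luminal epithelium sum, with r = 0.77 (adjusted permutation p = 0.017) and 0.75 (adjusted permutation p = 0.0172) and with rho = 0.60 for both (adjusted permutation p = 0.0895). None of the 3 passed without the 5 libraries that stood apart, where r was 0.70 for C3 with the macrophage sum (adjusted permutation p = 0.084), 0.78 for Saa1 (0.084) and 0.75 for Saa2 (0.0972) with the luminal sum. Within the neutralization experiment the luminal relations of Saa1 and Saa2 were 0.88 and 0.83 (permutation p = 0.00068 and 0.00192), within the other experiment 0.47 and 0.50 (permutation p = 0.209 and 0.201), and without the 2 farthest libraries 0.56 and 0.53. The luminal sum was dominated by the casein gene Csn3, which made up 72.1% to 81.4% of it. Nfkbiz and the neutrophil sum had r = −0.71 (permutation p = 0.0871), with r = −0.20 without IL-38 KO + IgG replicates 3 and 4 and r = 0.45 without the 5 libraries that stood apart. Lcn2 and the neutrophil sum had r = 0.16 over all 23 libraries (adjusted permutation p = 0.832), −0.90 within the neutralization experiment (permutation p = 6e-05) and 0.53 within the other (permutation p = 0.135). Without the 5 libraries it was −0.86 (permutation p = 1e-05, the smallest the permutations can give), and it was then the 1 relation of the 50 past the adjusted threshold. Mmp8 made up 98.8% of the neutrophil sum in the isotype control and 98.5% with anti-IL-38, so this is mostly a relation with 1 gene. Lcn2 and the macrophage sum had r = 0.041 over all 23 libraries, −0.71 within the neutralization experiment (permutation p = 0.0178) and −0.68 without the 5 libraries (permutation p = 0.00226). Defining hepatocyte markers reached at most 4 reads in any library, and albumin (Alb) was at 0 in 18 of 23, so markers of liver tissue were at or near 0 in these tumors.

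**Figure D5:**
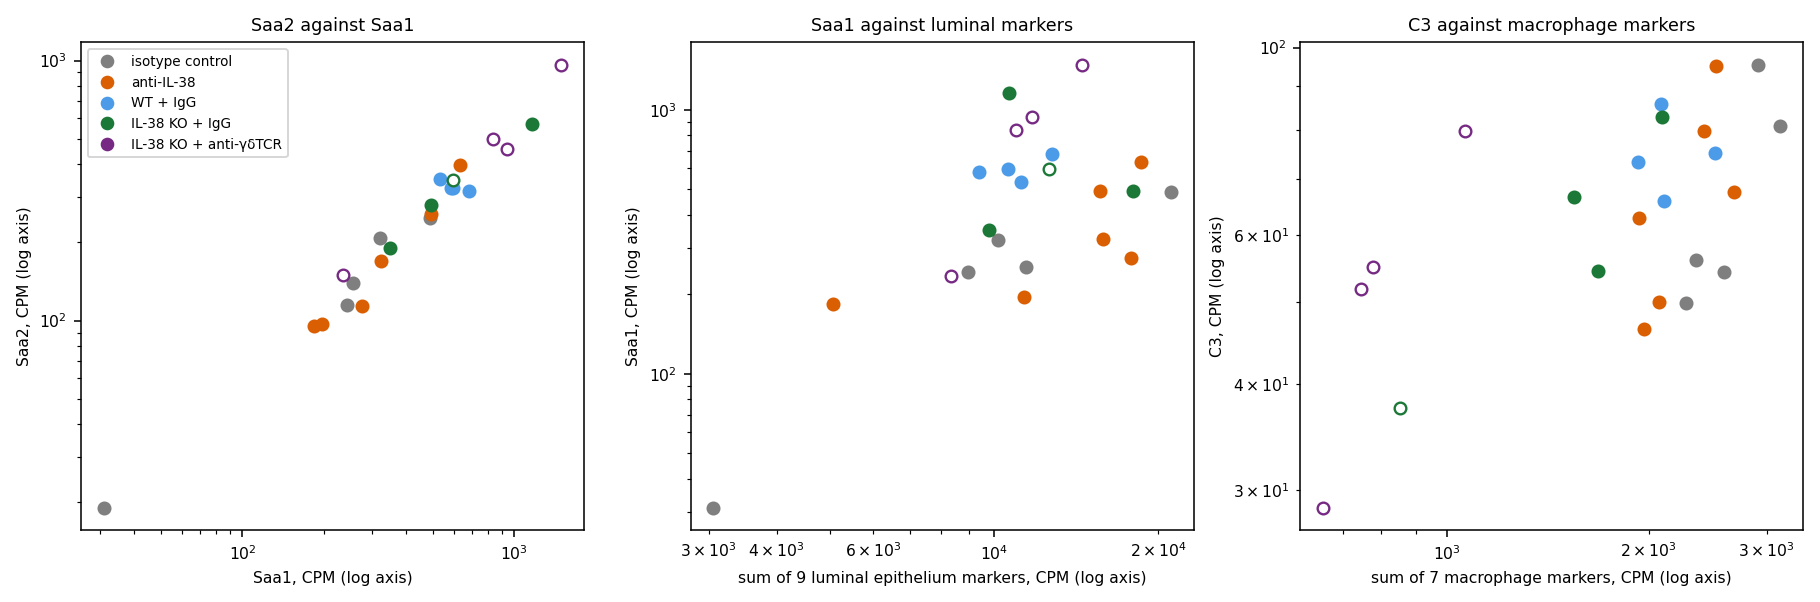
Saa2 against Saa1 (left), Saa1 against the sum of 9 luminal epithelium markers (middle) and C3 against the sum of 7 macrophage markers (right), in CPM on log axes, with open points for the 5 libraries that stood apart. Saa1 and Saa2 follow one line over all groups, and isotype control replicate 5, with 30.9 CPM of Saa1, lies at the low end of both left panels.

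The genes whose pattern over the 23 libraries was most like each of the 10 were sought among 11322 genes with a mean of at least 5 CPM, with group means removed. Lcn2 lay closest to Srprb (r = 0.87), P4hb (0.87) and Ssr1 (0.86). Outside the set, Saa1 lay closest to Clca3a2 (0.91), Chpt1 (0.87) and Selenos (0.84), and Saa2 to Clca3a2 (0.90), Selenos (0.84) and Gm36944 (0.83). Lrg1 had Muc1 (0.87), Tmem41a (0.86) and Eps8l2 (0.84) nearest. Saa3 lay near the endotoxin receptor gene Tlr4 (0.85) and Il10ra (0.79), a receptor of IL-10. C3 lay closest to Sh3tc1 (0.92), Tk2 (0.86) and Minos1 (0.85), and Hp to Ajuba (0.81), Ahnak (0.79) and Acot9 (0.79). Steap4 had Irs1 (0.89), Rdh10 (0.89) and Gas6 (0.88) nearest, and Nfkbiz had Ciao2a (0.84), Mtpn (0.84) and Sh3bgrl (0.84). Orm1 was below the level for this search.

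Other genes of the same pathways were counted from lists, and with all libraries limma called none of them in any comparison. Of 20 other acute phase proteins, 11 were tested on neutralization, where 3 were higher and 0 lower at an unadjusted p under 0.05, against 10.5% of all genes, and DESeq2 called 1, against 0.469%. This gene was Fgg, the fibrinogen γ chain, at 449 ± 208 against 133 ± 67.5 normalized counts (SD, n = 6 and 5), a difference of 1.90 (limma adjusted p = 0.373, DESeq2 adjusted p = 0.0134). Between the genotypes 12 were tested, and DESeq2 called Fgg lower (−1.52, adjusted p = 0.0162) and Lbp, the lipopolysaccharide binding protein, higher (0.80, adjusted p = 0.0323), 2 of 12 against 1.84% of all genes. Fgg thus had opposite signs under antibody and knockout. No test of the difference between antibody and knockout was made for Fgg. Under blockade DESeq2 called Fgb, Fgg and the pentraxin gene Ptx3 higher, at 2.39, 1.504 and 0.93, 3 of 11 against 6.27% of all genes. In the fit without IL-38 KO + IgG replicate 4, limma called 2 of the 11, Fgb and A2m, higher, beside 14.3% of all genes.

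Of 22 epithelial genes known to respond to IL-1, IL-17 and TNF, 20 were tested in each comparison. On neutralization DESeq2 called 1 of 20, against 0.469% of all genes. It was S100a8, a calprotectin subunit that neutrophils also carry, lower at −1.29 (DESeq2 adjusted p = 0.0258, limma adjusted p = 0.376). Between genotypes DESeq2 called none, against 1.84% of all genes. Under blockade DESeq2 called 2 of 20, against 6.27% of all genes, with Nfkbia, the NF-κB inhibitor IκBα, higher at 0.71 and the collagenase gene Mmp13 lower at −2.90. Without IL-38 KO + IgG replicate 4, limma called 4 of these 20 under blockade, Ccl20 and Nfkbia higher and Mmp13 and Tnfaip2 lower, in a fit that called 14.3% of all genes.

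Of 32 ligands, receptors and inhibitors of the IL-1, IL-6 and IL-17 families, 22 were tested on neutralization and between genotypes, and DESeq2 and limma called none. Of all genes, DESeq2 called 0.469% on neutralization and 1.84% between genotypes, and limma called 0% and 0.00604%. The smallest limma p-values belonged to Il18 (−0.52, adjusted p = 0.461) on neutralization and to Il1a (−1.56, adjusted p = 0.304) between genotypes. Under blockade 20 were tested, and DESeq2 called 2 of them (6.27% of all genes), the IL-1 receptor gene Il1r1, higher at 1.05, and Il6ra, lower at −0.70. Without IL-38 KO + IgG replicate 4, limma called 6 of these 20, with Il1b, Il1r1 and Il1rl1 higher and Il1rn, Il6ra and Lif lower, again beside 14.3% of all genes.

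The 20 signal and feedback genes of NF-κB, C/EBP and STAT3 were all tested. On neutralization the smallest limma p-values were those of Stat3 (0.62, adjusted p = 0.412), Socs1 (1.21, adjusted p = 0.425) and Socs3 (0.74, adjusted p = 0.425), all higher on average. Between genotypes 14 of the 20 were lower on average, with a median of −0.16 beside 0.0053 over all genes. At an unadjusted limma p under 0.05, 6 were lower and 2 higher, against 12.1% of all genes in either direction. Without IL-38 KO + IgG replicate 4, 3 were lower and 2 higher at that p, and the median was −0.18. In that fit the adjusted limma p called 0 of the 20, against 0.0431% of all genes. With all libraries DESeq2 called 1 of these 20 genes, against 1.84% of all genes. It was Cebpb, a C/EBP factor of the acute phase response, higher at 0.46 (DESeq2 adjusted p = 0.0490, limma adjusted p = 0.266). Under blockade DESeq2 called none, against 6.27% of all genes. Without IL-38 KO + IgG replicate 4, limma called 2 of 20, Bcl3 and Jak2, higher, beside 14.3% of all genes.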

How the data were processed

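RNA of 23 dissociated PyMT tumors was sequenced as QuantSeq 3′ FWD libraries with 75-cycle single reads. The authors processed the reads with the BlueBee QuantSeq pipeline; the submitters' notes also name STAR, HTSeq, DESeq2 and the build GRCm39, without roles. The deposited signal is normalized counts, made by dividing reads by 1 size factor per library, separately in a table of 19 libraries (neutralization and genotype) and a table of 8 (blockade); the 4 IL-38 KO + IgG libraries stand in both with equal reads. Dividing by the value of 1 read gave whole reads for all values within 0.0001%. CPM were computed from these reads. Limits for 0 reads cover counting error only; confidence intervals are those of limma over libraries. Symbols came from GENCODE M21 (47224 of 47643 identifiers) and promoter windows from RefSeq.

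Genes with a mean of at least 5 were tested on log2(normalized count + 1), which understates changes of low genes, with the moderated test of limma 3.58.1 under R 4.3.3 (trended eBayes, two-sided, Benjamini-Hochberg over all genes, threshold 0.05), using only the libraries compared. The interaction used all 19. edgeR 4.0.16 (quasi-likelihood, TMM) and DESeq2 1.42.0 on recovered reads were alternatives; an adjusted p that DESeq2 left undefined was not counted as called. Correlations used 100000 permutations within groups and were adjusted over 45 pairs or 50 marker relations. The genes, lists and tests were chosen with earlier results of these data known. Named were all 10 genes, list genes called by a test or otherwise among the 3 smallest p, and up to 3 genes of highest likeness, of which 1 is not reported here.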

Additional observations from a re-analysis of the deposited data

Results flagged for a closer look

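Within groups of 4 to 6 libraries, 60 sets of values were examined for a single library far from the others, and 3 were found; chance gives about 1 in 20. Steap4 stood at 49.0 CPM in anti-IL-38 replicate 2, while the other 5 libraries of that group held 8.40 to 18.9 CPM. Orm1 stood at 1.81 CPM in anti-IL-38 replicate 4, against 0.167 to 0.713 CPM in the other 5. Processed pseudogenes took 1.46% of the reads of IL-38 KO + IgG replicate 4, while replicates 1 to 3 of the group lay at 0.167% to 0.191%.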

How the results depend on the processing

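Over 40 values (10 genes in 4 comparisons) and all settings, 770 of 806 recomputed differences kept their direction and side of the threshold, 2 passed it newly (Hp between genotypes in DESeq2, Nfkbiz under blockade without IL-38 KO + IgG replicate 4) and 34, in 13 of the 40, changed sign. Of all genes, DESeq2 called 75 on neutralization, 305 between genotypes, 1033 under blockade and 70 on inhibition, and 1 of the 10 between genotypes; edgeR called 0 between genotypes and 1 on inhibition. Replicate numbers did not pair the libraries (r of same-numbered libraries -0.17 to 0.076); with a replicate block, 1 gene was called on neutralization and 0 between genotypes. With the experiment as a term, 1 gene was called on inhibition. Leaving out 1 library gave 0 to 6, 0 to 7, 0 to 2357 and 0 to 23 genes (neutralization, genotype, blockade, inhibition) and 0 to 1 of the 10 under blockade; the 2357 came without IL-38 KO + IgG replicate 4. Sign changes by setting were C3 on neutralization with the replicate block (-0.0086) and Saa2 between genotypes in edgeR (0.11) and DESeq2 (0.11). With 1 library left out, differences that changed sign ran on neutralization from -0.0088 to 0.92 (Saa2), -0.0072 to 0.38 (Hp), -0.064 to 0.17 (C3) and -0.42 to 0.62 (Orm1); between genotypes from -0.32 to 0.26 (Saa1), -0.29 to 0.25 (Saa2), -0.88 to 0.0083 (Orm1) and -0.14 to 0.41 (Nfkbiz); under blockade from -0.26 to 0.48 (Saa3) and -0.21 to 0.21 (C3); and on inhibition from -0.040 to 0.50 (Saa1), -0.094 to 0.43 (Saa2) and -0.52 to 0.065 (Orm1). The 2 pairs between genes past the threshold became 6 with a pseudocount of 0.5 CPM, 6 with TMM scaling, 4 with group means kept and 1 (Saa1 with Saa2) without the 5 libraries that stood apart (chosen after seeing the data), and 1 to 8 with 1 library left out; the 3 relations with markers became 11 with group means kept, 1 without the 5 libraries (Lcn2 with the neutrophil sum, none of the 3) and 1 to 5 with 1 library left out. The cause of these changes was not tested. Counts limit Orm1, with under 25 normalized counts in each library.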
